A study of Mus musculus with 15 samples.

Results

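Oligodendrocytes wrap axons of the central nervous system in myelin, a stack of membrane held together by a small set of abundant proteins and rich in galactosylated lipids. A group of transcription factors first sets up the lineage and then switches on the myelin genes, and the mature cell adds junction proteins, iron carriers and lipid enzymes. White matter tracts hold many of these cells: bundles of myelinated fibres run through the striatum, while the cortex holds fewer such fibres in its upper layers. The genes described here are 29 genes of myelin and of mature oligodendrocytes, chosen by name from this knowledge. They comprise 14 genes classed here as structural, which encode myelin proteins but also adhesion, matrix, other membrane and regulatory proteins. The rest are 5 enzymes of myelin lipid and related metabolism, 2 connexins, 5 transcription factors and 3 genes of transport, signalling or protein folding. All 29 passed the filter for low values (10 or more normalized counts in 3 or more of the 15 libraries), as did 17030 of the 26595 genes in the table.

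The samples were pieces of brain of male C57Bl/6 mice aged 5 months, sequenced as bulk RNA. The groups were 3 libraries of striatum and 4 of cerebral cortex from mice without Slc1a4 (genotype Slc1a4 -/-, called KO), and 4 of striatum and 4 of cortex from wild-type mice (WT). Slc1a4 encodes ASCT1, a transporter of serine, alanine and other neutral amino acids. The sources used here do not say how the allele was made or whether each library came from its own mouse, so the p-values speak only of variation among these libraries, which may be technical. Libraries are called by the number in their title, 1 to 4 for KO and 5 to 8 for WT, and KO striatum has the numbers 2, 3 and 4.

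Libraries held 23260155 to 24006391 counted reads in KO striatum, 22990233 to 25697792 in WT striatum, 28114119 to 30276815 in KO cortex and 26791109 to 29342263 in WT cortex. Slc1a4 stood at 158 to 344 normalized counts in KO striatum and 1237 to 1726 in WT striatum, and at 249 to 308 in KO cortex and 1494 to 1797 in WT cortex, without overlap in either tissue (two-sided exact permutation p = 0.029 in each, the smallest p these group sizes allow). The tissue labels were checked with marker genes of neurons: all 12 striatal markers were higher in striatum and all 10 cortical markers lower, in KO and in WT (limma adjusted p under 0.05). Some striatum libraries stood apart. Each gene list was scored per library as its average log2 distance from the tissue mean. On that score, markers of thalamus, septum and pallidum reached 1.63 in KO striatum 4 and 0.90 in WT striatum 8, against -1.15 to -0.11 in the other striatum libraries. Choroid plexus markers scored 2.56 in KO striatum 4 and 3.05 in WT striatum 5, and between -2.03 and -0.54 in the other striatum libraries. Striatal neuron markers scored -1.21 in KO striatum 4. Cortex libraries also differed: choroid plexus markers scored -0.45 to 1.29 in KO cortex and -1.31 to -0.07 in WT cortex. Striatal neuron markers scored -0.81 to 0.12 in KO cortex and -0.82 to 1.05 in WT cortex. Some results below are also given without KO striatum 4, or without both KO striatum 4 and WT striatum 8. WT striatum 5 was left out only where each library was left out in turn.

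RefSeq promoter windows of GRCm38.p6, each from 250 bases before to 50 bases after a transcription start, were available for 22 of the 29 genes. Myrf, Trf, Sox10, Mbp, Fa2h, Olig1 and Cryab are named only. The windows below are those that hold a short form of the element bound by MYRF, the transcription factor that switches on many myelin genes. They are shown because MYRF is itself among the genes described. Their genes stood higher in striatum than in cortex, as did all 29, and a link of the element to that difference was not tested. They are written in the direction of the gene, and capitals mark CTGGCAC or its reverse complement GTGCCAG, or, in Mog, CTGGTAC as its reverse complement GTACCAG.
Mag, chr7:30914814-30915113, minus strand: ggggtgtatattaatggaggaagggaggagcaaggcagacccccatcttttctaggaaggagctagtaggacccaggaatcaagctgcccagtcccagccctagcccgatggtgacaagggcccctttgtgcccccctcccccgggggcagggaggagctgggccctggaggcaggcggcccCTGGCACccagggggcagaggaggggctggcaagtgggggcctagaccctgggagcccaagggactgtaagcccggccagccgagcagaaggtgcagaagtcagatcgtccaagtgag
Cnp, chr11:100574689-100574988, plus strand: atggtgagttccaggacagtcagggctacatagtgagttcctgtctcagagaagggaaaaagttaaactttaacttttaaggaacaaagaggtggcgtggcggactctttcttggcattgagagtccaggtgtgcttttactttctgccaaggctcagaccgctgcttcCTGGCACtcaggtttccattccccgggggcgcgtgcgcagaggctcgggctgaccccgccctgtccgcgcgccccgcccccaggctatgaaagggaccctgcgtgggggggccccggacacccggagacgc
Hapln2, chr3:88027462-88027761, minus strand: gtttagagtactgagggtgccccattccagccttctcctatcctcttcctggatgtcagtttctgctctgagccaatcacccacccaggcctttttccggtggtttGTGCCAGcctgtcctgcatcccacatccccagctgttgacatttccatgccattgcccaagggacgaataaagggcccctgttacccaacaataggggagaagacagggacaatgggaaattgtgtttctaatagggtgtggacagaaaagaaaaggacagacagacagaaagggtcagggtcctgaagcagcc
Opalin, chr19:41077064-41077363, minus strand: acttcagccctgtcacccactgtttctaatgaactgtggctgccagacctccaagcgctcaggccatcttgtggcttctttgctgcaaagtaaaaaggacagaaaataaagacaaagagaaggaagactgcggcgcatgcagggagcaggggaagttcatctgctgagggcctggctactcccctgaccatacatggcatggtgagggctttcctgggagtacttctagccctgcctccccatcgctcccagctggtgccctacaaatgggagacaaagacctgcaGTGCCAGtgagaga
Tmem125, chr4:118543677-118543976, minus strand: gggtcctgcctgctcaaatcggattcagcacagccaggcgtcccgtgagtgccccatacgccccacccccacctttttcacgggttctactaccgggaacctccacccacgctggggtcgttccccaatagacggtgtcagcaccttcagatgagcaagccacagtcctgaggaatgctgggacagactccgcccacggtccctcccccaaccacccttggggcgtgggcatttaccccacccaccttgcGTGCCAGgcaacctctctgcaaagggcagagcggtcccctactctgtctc
Mog, chr17:37023349-37023648, minus strand: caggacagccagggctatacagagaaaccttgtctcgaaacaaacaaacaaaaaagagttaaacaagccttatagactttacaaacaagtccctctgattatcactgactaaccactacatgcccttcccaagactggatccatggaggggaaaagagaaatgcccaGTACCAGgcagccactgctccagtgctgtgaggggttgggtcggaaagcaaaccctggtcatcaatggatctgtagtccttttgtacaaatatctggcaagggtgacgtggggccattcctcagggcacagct

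CTGGCAC on either strand was present in windows of 5 of the 22 genes (22.7%), namely Cnp, Hapln2, Mag, Opalin and Tmem125, and in windows of 5.73% of 27025 genes in the RefSeq table. CTGGTAC was present for 1 of the 22, Mog (4.55%), and for 2.60% of all genes. In Mag the element began 68 bases before the start site of the window shown, in Cnp 81 bases, in Hapln2 144 bases and in Mog 83 bases before it. In Tmem125 it began at the start base itself, and in Opalin it lay after the start. Among motifs of other oligodendrocyte regulators, the SOX core ACAAAG was present for 6 of the 22 genes (27.3%) and 5680 of the 27025 genes, and the core ACAAT for 6 of 22 (27.3%) and 34.4%. The E-box CAGCTG was present for 4 of 22 (18.2%) and 18.3% of all, and CATCTG, or CAGATG on the other strand, for 9 of 22 (40.9%) and 19.2%. These shares are per gene, and a gene can have several windows: 30 for the 22 genes and 32851 for all genes. Per window the shares were 20% and 5.01% for CTGGCAC, and 3.33% and 2.24% for CTGGTAC. For ACAAAG they were 26.7% and 18.7%, and for ACAAT 30% and 31.0%. For CAGCTG they were 13.3% and 16.3%, and for CATCTG 30% and 17.2%. The shares describe letters in a window and were not tested.

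Per kilobase of annotated exon, the levels of the 29 genes spanned a wide range within each group. Mbp led in every group, with 7408 ± 2212 normalized counts per kb in KO striatum (SD, n = 3), 8797 ± 1637 in WT striatum, 3202 ± 395 in KO cortex and 3399 ± 992 in WT cortex (SD, n = 4 each). Ninj2, which encodes a cell adhesion protein, was the lowest in every group, at 60.7, 61.2, 33.6 and 38.1 normalized counts per kb in the same order of groups. In WT striatum Mbp was followed by Mal (4741), Mobp (4363), Qdpr (3904), Cnp (3872) and Cldn11 (3616), all as mean normalized counts per kb. The same 5 genes followed Mbp in the same sequence in KO striatum and in another sequence in KO cortex, and in WT cortex Cryab (1364) stood before Cldn11 (1325). Neighbours in the order could mostly not be told apart: the ranges of neighbouring genes overlapped for 28 of 28 neighbouring pairs in KO striatum, 17 of 28 in WT striatum, 18 of 28 in KO cortex and 28 of 28 in WT cortex. Levels of genes that share exon sequence with a neighbour are uncertain, because the strand setting of the counting is not given in the sources used here. This touches Cnp, Ermn, Tspan2, Qdpr, Nkx6-2, Olig1 and Cryab, which overlap a gene on the opposite strand, and Mobp and Trf, which overlap a predicted gene on their own strand.

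All 29 genes had a higher mean in striatum than in cortex, in KO and in WT mice. In WT mice 28 of the 29 genes rose in striatum against cortex (limma adjusted p under 0.05), where 24.9% of all tested genes did so. All 29 had no overlap between the WT striatum and WT cortex libraries, and of all genes 47.3% had none, in either direction. Their median log2 fold change was 1.26, or 2.40-fold, with a range of 0.70 to 1.61, and the median of all genes was 0.0058. In KO mice 26 of the 29 rose, against 18.4% of all genes, and 25 had groups that did not overlap, where 41.5% of all genes had none in either direction. The median in KO mice was 1.06 on the log2 scale, or 2.09-fold, with a range of 0.54 to 1.42, and that of all genes was 0.0024. In bulk tissue, fewer cells of a type and less RNA per cell cannot be told apart, so these values do not say whether striatum held more oligodendrocytes or more myelin RNA in each. Leaving out KO striatum 4 left 25 genes called and a median of 0.79 in KO mice, and leaving out WT cortex 7 left 28 called and a median of 1.096 in WT mice.

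**Figure D1:**
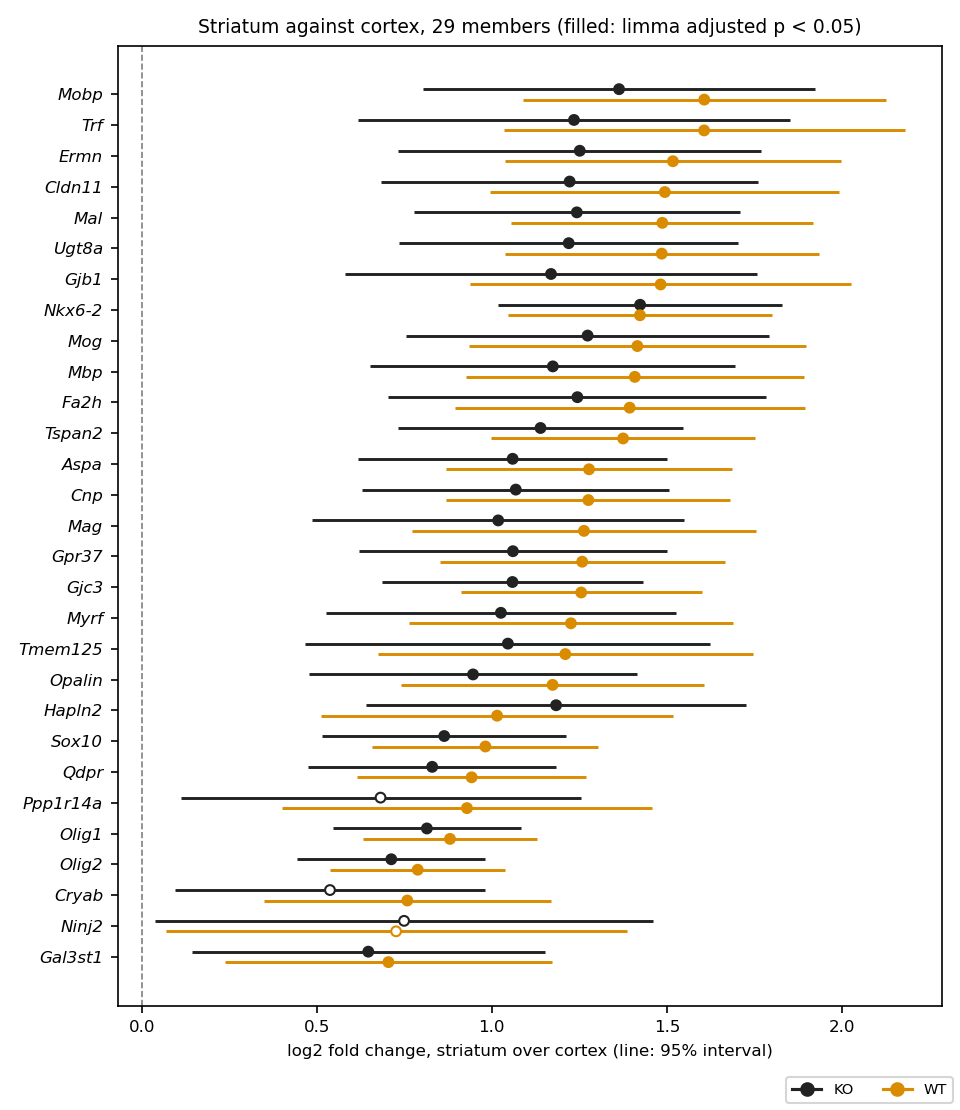
The horizontal axis gives the log2 fold change of striatum over cortex for each of the 29 genes, in KO mice (black) and WT mice (orange), with 95% intervals from limma. Filled points passed the test, and every point lies above 0, from 0.54 for Cryab in KO mice to 1.61 for Mobp in WT mice.

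Among the structural proteins, Mbp (ENSMUSG00000041607, chromosome 18, 82475146 to 82585637, plus strand, GRCm38) encodes myelin basic protein, which draws the inner faces of the myelin membrane together. It had 61997, 44386 and 81829 normalized counts in KO striatum 2, 3 and 4, and 80145, 67214, 59660 and 90986 in WT striatum 5 to 8. In cortex it had 27933, 30649, 22595 and 27303 in KO libraries 1 to 4, and 32325, 29010, 17111 and 36712 in WT libraries 5 to 8. Every striatum library lay above every cortex library, while KO and WT overlapped within each tissue. The log2 fold change of striatum over cortex was 1.17 in KO mice (SE 0.24, limma adjusted p = 0.0017) and 1.41 in WT mice (SE 0.23, limma adjusted p = 0.00013).

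Mobp (ENSMUSG00000032517, chromosome 9, 120149707 to 120181484, plus strand), a basic protein of compact myelin, had the largest tissue difference in WT mice. It had 23254, 20625 and 38191 normalized counts in KO striatum 2 to 4, and 30297, 28164, 22558 and 38518 in WT striatum 5 to 8. The cortex values were 9832, 11062, 9023 and 11230 in KO 1 to 4, and 10770, 9511, 5868 and 14336 in WT 5 to 8. The lowest striatum library, KO striatum 3, was above the highest cortex library, WT cortex 8. The log2 fold change of striatum over cortex was 1.36 in KO mice (SE 0.26, limma adjusted p = 0.00096) and 1.61 in WT mice (SE 0.24, limma adjusted p = 7.8e-05).

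Mog and Mag, whose promoter windows are shown above, encode glycoproteins of the outermost and innermost faces of the sheath. Mog (ENSMUSG00000076439, chromosome 17, 37010743 to 37023398, minus strand) had 1877, 1591 and 3468 normalized counts in KO striatum 2 to 4, and 3036, 2695, 2479 and 3108 in WT striatum 5 to 8. Its cortex values were 955, 759, 894 and 1017 in KO 1 to 4, and 1187, 1111, 682 and 1382 in WT 5 to 8. KO striatum 2 and 3 lay below all 4 WT striatum libraries and KO striatum 4 above them. Mag (ENSMUSG00000036634, chromosome 7, 30899176 to 30914873, minus strand) had 6990, 4657 and 11038 normalized counts in KO striatum 2 to 4, and 8710, 7916, 7666 and 9444 in WT striatum 5 to 8. Its cortex values were 3552, 3652, 3170 and 3688 in KO 1 to 4, and 3948, 4025, 2158 and 4384 in WT 5 to 8. Mag showed the same placing of KO striatum 2, 3 and 4 around the WT striatum libraries. Striatum over cortex was 1.27 for Mog in KO mice (limma adjusted p = 0.00091) and 1.42 in WT mice (limma adjusted p = 0.00012) on the log2 scale. For Mag it was 1.02 in KO mice (limma adjusted p = 0.0051) and 1.26 in WT mice (limma adjusted p = 0.00038).

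Cnp (ENSMUSG00000006782, chromosome 11, 100574904 to 100591729, plus strand) encodes an enzyme of the uncompacted cytoplasmic channels of myelin. It had 10459, 8604 and 17109 normalized counts in KO striatum 2 to 4, and 14967, 13258, 12738 and 15404 in WT striatum 5 to 8. The counts in cortex were 5920, 5083, 5126 and 5956 in KO 1 to 4, and 6432, 6294, 4000 and 6995 in WT 5 to 8. The striatum libraries lay above the cortex libraries without overlap, with a log2 fold change of 1.07 in KO mice (SE 0.21, limma adjusted p = 0.00095) and 1.28 in WT mice (SE 0.19, limma adjusted p = 6.8e-05).

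Opalin (ENSMUSG00000050121, chromosome 19, 41061710 to 41077113, minus strand), a transmembrane glycoprotein of oligodendrocytes, had 442, 526 and 888 normalized counts in KO striatum 2 to 4, and 815, 691, 675 and 534 in WT striatum 5 to 8. Cortex libraries had 341, 239, 295 and 367 in KO 1 to 4, and 340, 348, 259 and 255 in WT 5 to 8. It rose in striatum by 0.95 on the log2 scale in KO mice (SE 0.22, limma adjusted p = 0.0036) and by 1.17 in WT mice (SE 0.20, limma adjusted p = 0.00025). Unlike Mbp, it was lowest of the WT striatum libraries in WT striatum 8, where Mbp was highest.

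Of the remaining structural genes, Mal (a proteolipid of myelin lipid rafts), Cldn11 (the tight-junction claudin of the sheath), Ermn (ermin, a cytoskeletal protein of late oligodendrocytes), Tspan2 (a tetraspanin), Hapln2 (a link protein of the matrix at nodes of Ranvier) and Tmem125 (a transmembrane protein) rose in striatum in both genotypes. Their log2 fold changes ran from 1.05 for Tmem125 to 1.25 for Ermn in KO mice, and from 1.01 for Hapln2 to 1.52 for Ermn in WT mice. Hapln2 was the exception among these 6 in being larger in KO (1.18) than in WT (1.01). Ermn had 5139, 3226 and 7240 normalized counts in KO striatum 2 to 4 and 5412, 5464, 5405 and 6162 in WT striatum 5 to 8. In cortex Ermn stood at 1775 to 2327 in KO and 1242 to 2683 in WT.

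A pair of structural genes did not pass in every comparison. Ppp1r14a, an inhibitor of myosin phosphatase, had 265, 202 and 498 normalized counts in KO striatum 2 to 4 and 181, 152, 191 and 227 in KO cortex 1 to 4, so that KO striatum 3 fell among the cortex libraries. Its log2 fold change of striatum over cortex was 0.68 in KO mice (limma adjusted p = 0.057) and 0.93 in WT mice (limma adjusted p = 0.0061). Ninj2 had 50.4, 33.4 and 86.8 normalized counts in KO striatum 2 to 4, and 48.9, 47.8, 63.9 and 68.9 in WT striatum 5 to 8. Its cortex values were 35.2, 34.6, 22.4 and 33.6 in KO 1 to 4, and 38.6, 43.7, 18.3 and 42.1 in WT 5 to 8. The Ninj2 difference was 0.75 in KO mice (limma adjusted p = 0.09) and 0.73 in WT mice (limma adjusted p = 0.062), and only in WT mice did the tissues not overlap.

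**Figure D2:**
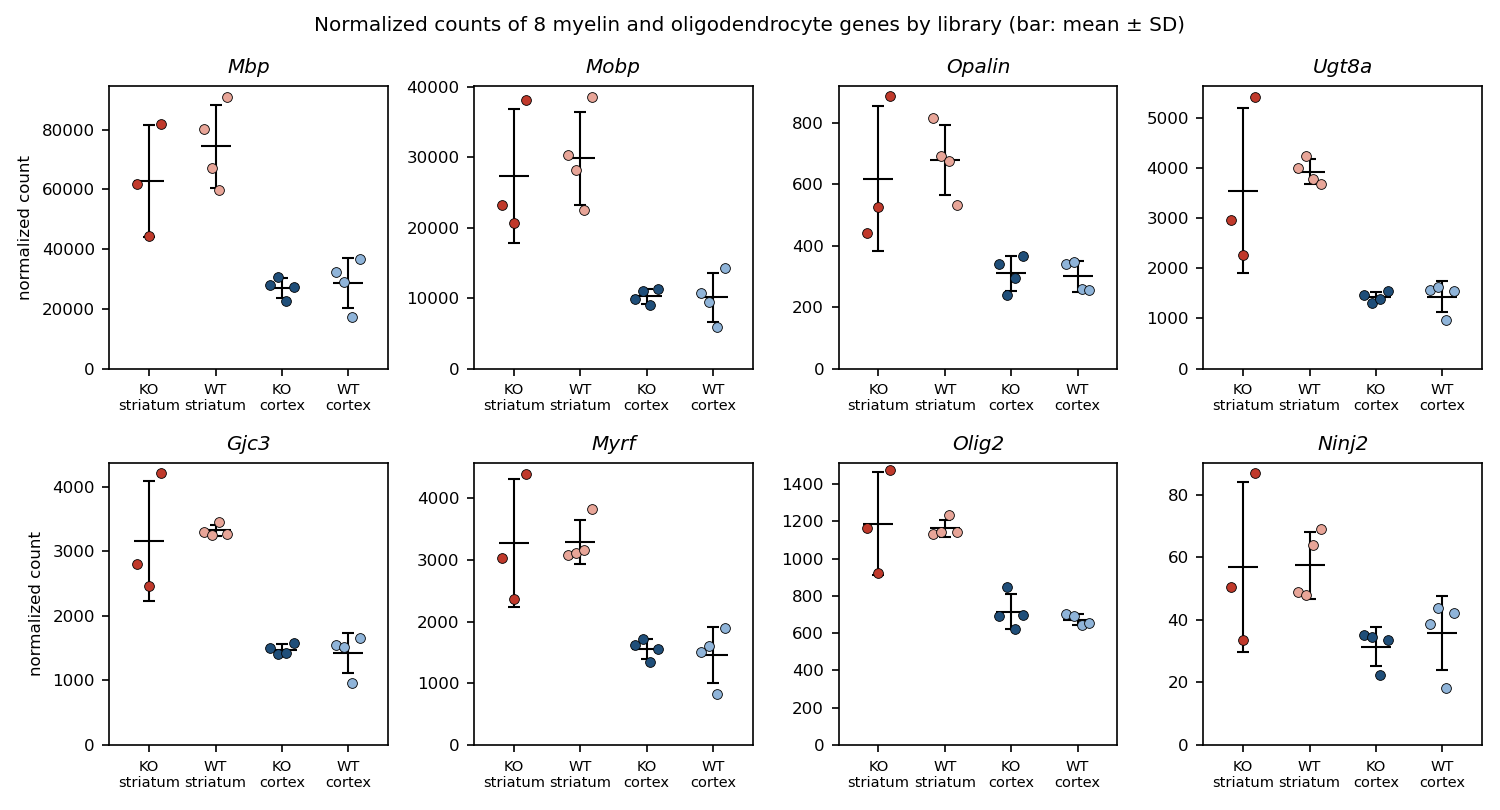
Normalized counts of 8 genes in every library are shown on linear axes from 0, grouped as KO striatum, WT striatum, KO cortex and WT cortex, with the mean and SD of each group. KO striatum spreads widest, as for Mbp at 44386 to 81829. WT cortex holds 1 low library for most of the genes, at 17111 for Mbp, but not for Opalin or Olig2.

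The enzymes of myelin lipids rose with the proteins. Ugt8a (ENSMUSG00000032854, chromosome 3, 125865271 to 125938619, minus strand) encodes the transferase that adds galactose to ceramide, the step that makes galactosylceramide. It had 2976, 2271 and 5422 normalized counts in KO striatum 2 to 4, and 4013, 4239, 3794 and 3691 in WT striatum 5 to 8. In cortex it had 1463, 1304, 1392 and 1554 in KO 1 to 4, and 1578, 1624, 973 and 1553 in WT 5 to 8. The tissues did not overlap, and the log2 fold change was 1.22 in KO mice (SE 0.23, limma adjusted p = 0.00074) and 1.49 in WT mice (SE 0.21, limma adjusted p = 4.3e-05). Fa2h, which hydroxylates the fatty acids of these lipids, rose by 1.24 on the log2 scale in KO and 1.39 in WT mice. Aspa, which splits N-acetylaspartate and so frees acetate, rose by 1.06 in KO and 1.28 in WT mice, and Qdpr, which regenerates tetrahydrobiopterin, by 0.83 in KO and 0.94 in WT mice.

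Gal3st1 (ENSMUSG00000049721, chromosome 11, 3983636 to 3999326, plus strand) encodes the sulfotransferase that turns galactosylceramide into sulfatide, and had the smallest tissue difference in WT mice. It had 359, 202 and 514 normalized counts in KO striatum 2 to 4, and 362, 370, 434 and 404 in WT striatum 5 to 8. In cortex it had 233, 198, 191 and 234 in KO 1 to 4, and 289, 281, 186 and 218 in WT 5 to 8. KO striatum 3 lay among the KO cortex libraries, whereas WT striatum and WT cortex did not overlap. The log2 fold change was 0.65 in KO mice (SE 0.24, limma adjusted p = 0.042) and 0.70 in WT mice (SE 0.22, limma adjusted p = 0.015). The KO call was lost in 13 alternative settings, with 0.34 (limma adjusted p = 0.24) when KO striatum 4 was left out.

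The connexins Gjb1 and Gjc3, which oligodendrocytes place in gap junctions and in the membrane next to the axon, both rose in striatum. Gjb1 (ENSMUSG00000047797, chromosome X, 101376378 to 101385629, plus strand) had 538, 378 and 936 normalized counts in KO striatum 2 to 4, and 715, 650, 666 and 705 in WT striatum 5 to 8. In cortex it had 286, 258, 221 and 259 in KO 1 to 4, and 313, 321, 143 and 248 in WT 5 to 8. Gjb1 rose by 1.17 on the log2 scale in KO mice (SE 0.28, limma adjusted p = 0.004) and 1.48 in WT mice (SE 0.25, limma adjusted p = 0.00024). Gjc3, at 2466 to 4213 normalized counts in KO striatum and 3259 to 3457 in WT striatum, rose by 1.06 in KO mice (SE 0.17, limma adjusted p = 0.00029) and 1.26 in WT mice (SE 0.16, limma adjusted p = 1.8e-05).

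All 5 transcription factors rose in striatum in both genotypes, with a median of 0.86 in KO and 0.98 in WT mice on the log2 scale. The medians of the 14 genes classed as structural were 1.16 in KO and 1.33 in WT mice. The difference between these medians was not tested. Olig2 and Olig1, helix-loop-helix factors that act from the precursor stage on, had the smallest changes of the 5, 0.71 in KO and 0.79 in WT mice for Olig2 and 0.81 in KO and 0.88 in WT mice for Olig1. Sox10, the factor of the whole lineage, rose by 0.86 in KO and 0.98 in WT mice, and Myrf by 1.03 in KO and 1.23 in WT mice. Nkx6-2 (ENSMUSG00000041309, chromosome 7, 139579376 to 139582797, minus strand), a homeobox factor of maturing oligodendrocytes, rose by 1.42 in both, with the smallest adjusted p of the 29 genes in each (5.2e-05 in KO and 1.3e-05 in WT mice, limma). Nkx6-2 had 455, 483 and 603 normalized counts in KO striatum 2 to 4, and 471, 493, 547 and 401 in WT striatum 5 to 8. Its cortex values were 197, 182, 172 and 210 in KO 1 to 4, and 185, 211, 113 and 220 in WT 5 to 8. Olig2 (ENSMUSG00000039830, chromosome 16, 91225457 to 91228677, plus strand) had 1165, 924 and 1472 normalized counts in KO striatum 2 to 4, and 1129, 1144, 1232 and 1141 in WT striatum 5 to 8. In cortex Olig2 had 692, 849, 622 and 700 in KO 1 to 4, and 703, 691, 644 and 652 in WT 5 to 8. WT libraries of each tissue lay close together for Olig2, and WT cortex 7 lay just below the other WT cortex libraries.

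Trf, Gpr37 and Cryab complete the set. Trf (ENSMUSG00000032554, chromosome 9, 103204001 to 103230444, minus strand) encodes transferrin, the iron carrier that oligodendrocytes make. It had 637, 451 and 1368 normalized counts in KO striatum 2 to 4, and 1128, 833, 766 and 1063 in WT striatum 5 to 8. Trf was thus highest in KO striatum 4 and WT striatum 5, the libraries with choroid plexus scores of 2.56 and 3.05. A part of choroid plexus in these Trf values was not tested. The Trf values in cortex were 308, 327, 295 and 314 in KO 1 to 4, and 335, 351, 203 and 370 in WT 5 to 8. Trf rose by 1.23 in KO mice (SE 0.29, limma adjusted p = 0.0039) and by 1.61 in WT mice (SE 0.27, limma adjusted p = 0.00019), and Gpr37, an orphan receptor, by 1.06 in KO and 1.26 in WT mice. Cryab (ENSMUSG00000032060, chromosome 9, 50751325 to 50756636, plus strand), the small heat-shock chaperone alpha-B crystallin, had 2534, 1562 and 3639 normalized counts in KO striatum 2 to 4, and 3677, 2931, 3237 and 3725 in WT striatum 5 to 8. In cortex Cryab had 1684, 1750, 1540 and 1736 in KO 1 to 4, and 2197, 2171, 1529 and 2174 in WT 5 to 8. Its striatum over cortex value was 0.54 in KO mice, where KO striatum 3 lay among the cortex libraries (limma adjusted p = 0.054), and it rose by 0.76 in WT mice (limma adjusted p = 0.0044).

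Loss of Slc1a4 left no myelin gene past the test. In striatum 0 of the 29 genes differed between KO and WT (limma, 1 at an unadjusted p under 0.05, and 0 by edgeR and by DESeq2), where 0.0763% of all genes did so by limma. An unadjusted limma p under 0.05 was reached by at least 2171 of the 17030 genes tested in striatum. That count is the background also for the marker lists in striatum below. In cortex 0 differed by limma, edgeR or DESeq2 (0 at a limma unadjusted p under 0.05), against 0.00587% of all genes by limma and edgeR and 0.0176% by DESeq2. None of the 29 had KO and WT libraries without overlap in striatum, where 8.07% of all genes did, or in cortex, where 4.02% did. The median log2 fold change of KO over WT was -0.18 in striatum, with 26 genes below 0 and 3 above, and 0.02 in cortex, with 12 below and 17 above. The medians of all genes were 0.0079 in striatum and 0.0012 in cortex. Some lists of markers of other cells had medians of KO over WT in striatum further from 0, with no gene past the limma test in any of them. Of the striatal neuron markers 12 of 12 lay below 0 (median -0.83, 7 at an unadjusted p under 0.05). Of the cortical neuron markers 9 of 10 lay above 0 (median 1.03, 7 at an unadjusted p under 0.05, 2 without overlap). Of the microglia markers 9 of 10 lay below 0 (median -0.22, 6 at an unadjusted p under 0.05, 3 without overlap). Choroid plexus markers had a median of 0.27. Medians were nearer 0 than that of the 29 genes for astrocyte markers (-0.10), endothelial markers (-0.05) and thalamic, septal and pallidal markers (0.14). In cortex choroid plexus markers lay above 0 for 9 of 9 (median 1.37, 2 without overlap). Striatal neuron markers lay below 0 there for 12 of 12 (median -0.42, 0 without overlap), and no gene of either list passed by limma. Medians in cortex were -0.02 for cortical neuron and astrocyte markers, -0.06 for microglia markers, 0.07 for endothelial markers and 0.10 for thalamic, septal and pallidal markers. The difference between the effects in the tissues passed for 0 of the 29 genes by limma, edgeR or DESeq2 (0 at a limma unadjusted p under 0.05). Of all genes 0.00587% passed by limma and by edgeR, and 0.0881% by DESeq2. The median of that difference over the 29 genes was -0.21.

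Intervals show what sizes these data leave room for. In striatum the log2 fold change of KO over WT was -0.27 for Mbp (95% interval -0.79 to 0.25), -0.37 for Mog (-0.89 to 0.15) and -0.24 for Ugt8a (-0.73 to 0.24). Intervals were narrower for the transcription factors Olig2 (0.01, -0.26 to 0.28) and Olig1 (-0.08, -0.35 to 0.19). All intervals use a single spread shared by all groups. The coefficient of variation of Olig2 was 23.1% in KO striatum, 4.06% in WT striatum, 13.3% in KO cortex and 4.32% in WT cortex. For Olig1 it was 26.2%, 3.65%, 7.03% and 8.55% in the same order. The striatum intervals of Olig2 and Olig1 may therefore be too narrow for the spread of KO striatum. In cortex Mbp was at -0.04 (-0.52 to 0.44) and Olig2 at 0.08 (-0.17 to 0.33). Cryab had the lowest value of the 29 genes in each tissue, -0.47 in striatum (-0.92 to -0.03, limma adjusted p = 0.3) and -0.25 in cortex (-0.66 to 0.16, limma adjusted p = 1). The Cryab means were 2578 normalized counts in KO striatum and 3393 in WT striatum, and 1678 in KO cortex and 2018 in WT cortex.

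**Figure D3:**
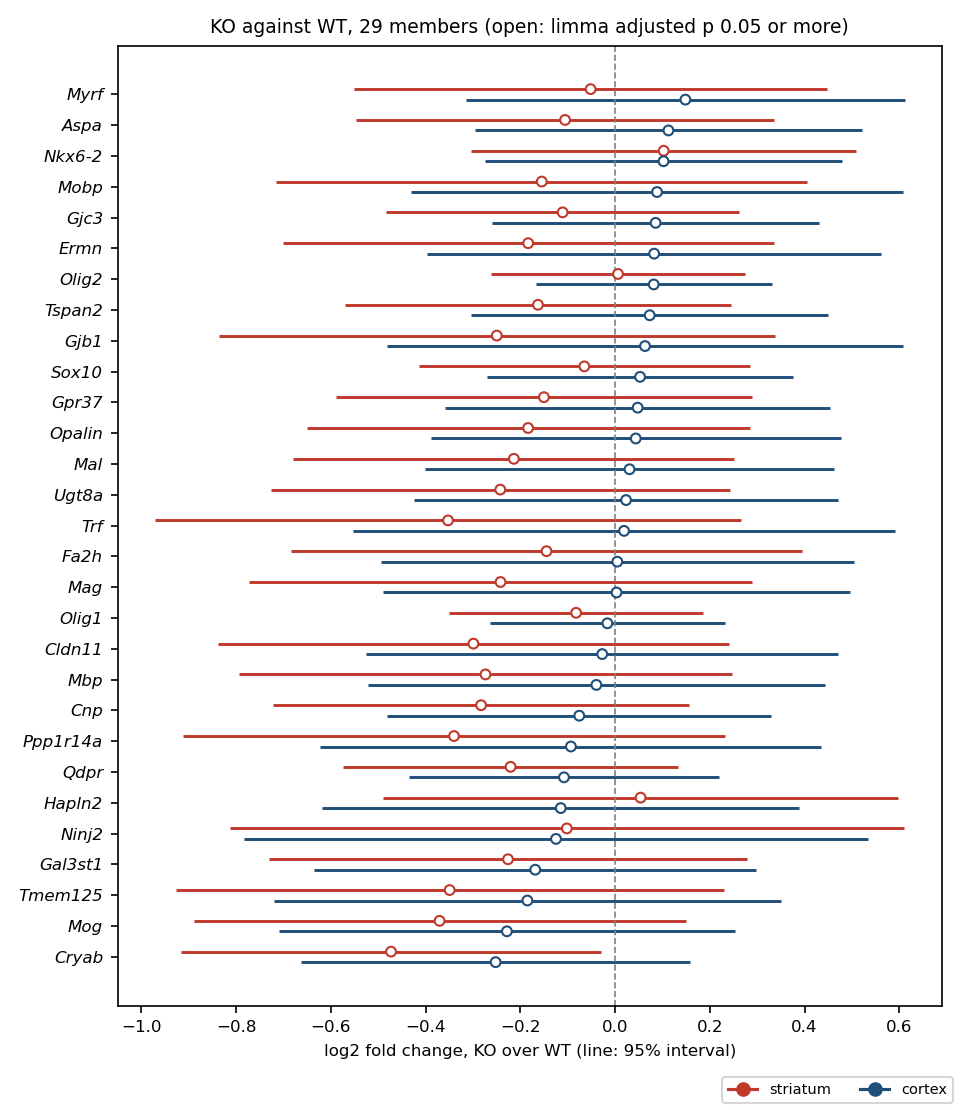
The horizontal axis gives the log2 fold change of KO over WT for each of the 29 genes in striatum (red) and cortex (blue), with 95% intervals from limma. Open points did not pass the test; values run from -0.47 to 0.10 in striatum and from -0.25 to 0.15 in cortex.

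These medians turned on single libraries. KO striatum 3 was the lowest of the 7 striatum libraries for 27 of the 29 genes, and KO striatum 4 the highest for 26. The score of all 29 genes was -0.17, -0.57 and 0.46 in KO striatum 2, 3 and 4, and 0.13, 0.03, 0.02 and 0.20 in WT striatum 5 to 8. Without KO striatum 3 the striatum median of KO over WT was 0.05, with 9 genes below 0. Without KO striatum 4 it was -0.46, with all 29 below 0 and Cryab past the test (-0.76, limma adjusted p = 0.035), where 3.03% of all genes passed. With KO striatum 4 and WT striatum 8 both left out, the striatum libraries rich in thalamic, septal and pallidal markers, Cryab was again the gene past the test (-0.72, limma adjusted p = 0.042) and the median was -0.40. When WT cortex 7 was left out as well, 8 genes were lower in KO striatum (Mog, Mag, Cnp, Tmem125, Ugt8a, Gjc3, Trf and Cryab), at -0.82 to -0.34, with limma adjusted p between 0.012 and 0.049 and 4.74% of all genes called. Removing WT cortex 7 changes only the shared estimate of spread for a striatum comparison. These exclusions were chosen after the data were seen and leave 2 KO striatum libraries.

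In cortex WT cortex 7 was the lowest of 8 libraries for 26 of the 29 genes, and WT cortex 8 the highest for 17. The score was 0.04, -0.0023, -0.13 and 0.07 in KO cortex 1 to 4, and 0.16, 0.17, -0.55 and 0.24 in WT cortex 5 to 8. Without WT cortex 7 the cortex median of KO over WT was -0.18, with 28 of 29 genes below 0 and none past the test (limma, 1 at an unadjusted p under 0.05). The 29 genes together took 0.506 to 0.956% of all normalized counts in KO striatum, 0.656 to 0.915% in WT striatum, 0.259 to 0.315% in KO cortex and 0.192 to 0.376% in WT cortex. The median coefficient of variation of the 29 genes was 37.1% in KO striatum, 10.6% in WT striatum, 8.87% in KO cortex and 24.7% in WT cortex, and that of all genes with a mean of at least 20 was 13.3%, 10.5%, 7.04% and 7.51% in the same order.

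Marker lists moved with these libraries in part. In KO striatum 4 the thalamic, septal and pallidal score was 1.63, the choroid plexus score 2.56 and the striatal neuron score -1.21. In KO striatum 3 the same scores were -0.39, -1.52 and -0.04, and in WT cortex 7 they were -0.11, -1.31 and -0.82. The scores of cortical neuron markers did not overlap between genotypes in striatum, at 0.80, 0.24 and 0.40 in KO striatum 2 to 4 and -0.86, -0.82, -0.09 and -0.15 in WT striatum 5 to 8. The sums of these 10 genes did overlap in striatum, at 12101 to 19104 normalized counts in KO striatum and 8944 to 12510 in WT striatum, and were 80361 to 85501 in KO cortex and 77748 to 86925 in WT cortex. Over the whole thalamic, septal and pallidal list of 8 genes, the sum was 5726 to 40076 normalized counts in KO striatum and 9389 to 24364 in WT striatum, and 1957 to 2452 in KO cortex and 1981 to 2513 in WT cortex. Astrocyte markers scored -0.25 to 0.18 and microglia markers -0.24 to 0.18 over the striatum libraries. Their part in the values of the myelin genes was not tested. The Schwann cell marker Prx, at 12.4 normalized counts in KO striatum and 13.5 in WT striatum, did not pass the test between tissues (limma adjusted p = 0.6 in KO and 0.71 in WT mice).

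**Figure D4:**
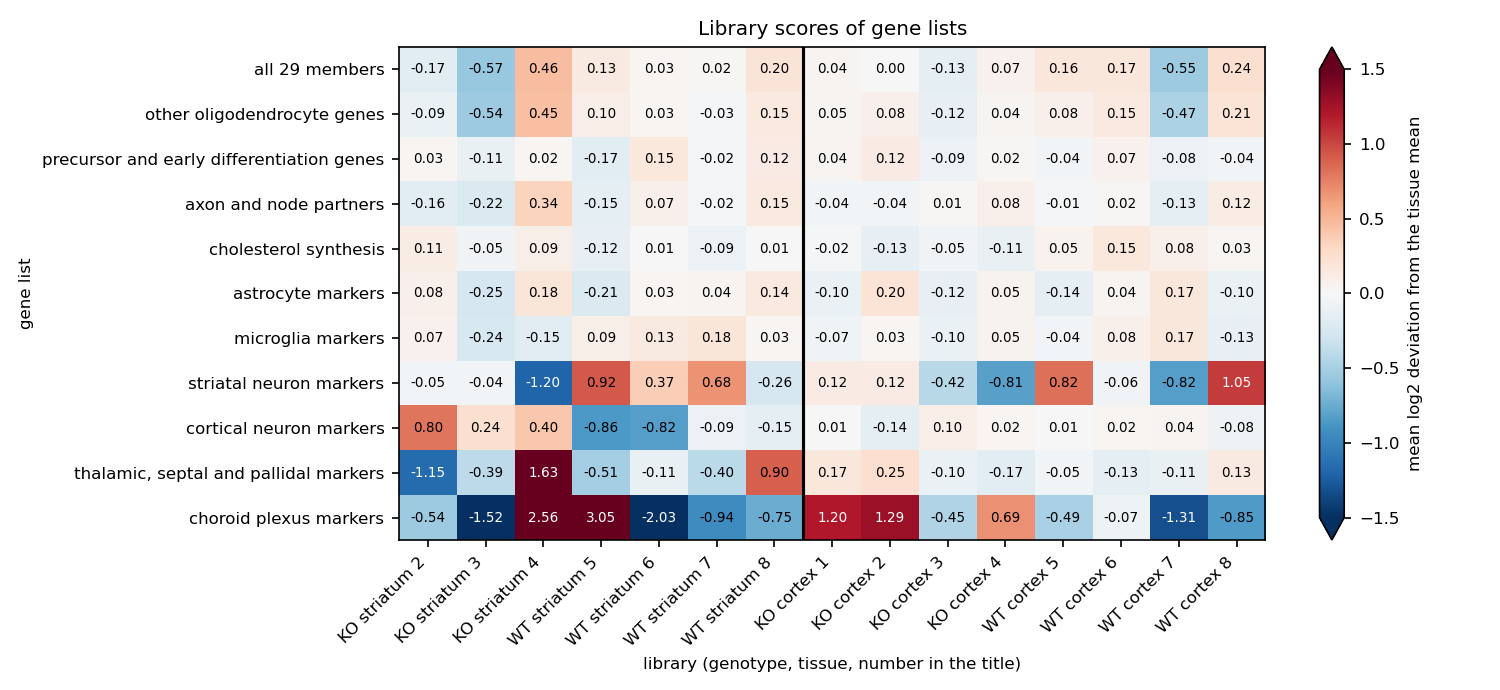
Each cell gives the score of a gene list in a library, the mean log2 deviation from the mean of that tissue, with KO striatum at the left and WT cortex at the right. The 29 genes are lowest in KO striatum 3 (-0.57) and WT cortex 7 (-0.55) and highest in KO striatum 4 (0.46), and the other oligodendrocyte genes follow with -0.54, -0.47 and 0.45.

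Other genes of the lineage were read from lists chosen by name. Of 24 further oligodendrocyte genes, 24 rose in striatum in KO mice and 23 in WT mice, where 18.4% and 24.9% of all genes did so. Their medians were 1.06 in KO and 1.13 in WT mice on the log2 scale. The smallest p in WT mice belonged to Trim59 (1.08 in KO and 1.35 in WT mice), Il33, an alarmin cytokine (0.92 in KO and 1.21 in WT mice), and Evi2a (1.101 in KO and 1.33 in WT mice). Josd2 was the gene not past the test in WT mice (0.14, limma adjusted p = 0.21). In KO against WT in striatum, 0 of the 143 genes of all the other lists passed by limma or by edgeR. Of the 143, 31 had a limma unadjusted p under 0.05, as did at least 2171 of the 17030 genes tested. By DESeq2 6 of the 143 passed, where 1.96% of all genes did, and none of the 6 came from the oligodendrocyte or precursor list. With KO striatum 4, WT striatum 8 and WT cortex 7 left out, 26 of the 143 passed by limma, where 4.74% of all genes did, and 7 of these 26 were oligodendrocyte genes (Pllp, Gsn, S1pr5, Tmem88b, Slc44a1, Trim59 and Il33). In cortex 0 of the 143 passed by limma, edgeR or DESeq2. There 8 of the 143 had a limma unadjusted p under 0.05, as did at least 276 and fewer than 717 of the 17030 genes tested. Of these 8, 7 were cholesterol synthesis genes. In that list 18 of 19 genes lay below 0 in KO against WT cortex (median -0.14). Of the 19, 5 had no overlap, where 4.02% of all genes had none in either direction.

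Of 14 genes of oligodendrocyte precursors and early differentiation, 9 rose in striatum in KO mice, and 10 rose and 1 fell in WT mice, with medians of 0.55 in KO and 0.67 in WT mice. Of all genes 18.4% rose and 19.5% fell in striatum in KO mice, and 24.9% rose and 25.7% fell in WT mice, which holds also for the lists below. Cacng4, a subunit of AMPA receptor complexes, had 2560 normalized counts in KO striatum and 663 in KO cortex, and 3296 in WT striatum and 707 in WT cortex (log2 fold changes of striatum over cortex 1.95 in KO and 2.20 in WT mice). Lhfpl3 followed with 1.66 in KO and 1.75 in WT mice, and Nkx2-2, a homeobox factor of the lineage, with 1.06 in KO and 1.09 in WT mice. Pdgfra, the growth factor receptor of precursors, was among the smaller changes in WT mice (0.34, limma adjusted p = 0.015), and Cspg4 (0.23, limma adjusted p = 0.09) and Sox6 (0.01, limma adjusted p = 0.96) were not past the test. The score of the precursor list stayed between -0.17 and 0.15 over all libraries, including -0.11 in KO striatum 3, 0.02 in KO striatum 4 and -0.08 in WT cortex 7, the libraries in which the 29 myelin genes stood at -0.57, 0.46 and -0.55. Its members did not move alike. Bcas1, a gene of early myelinating oligodendrocytes, had 3523, 3017 and 5692 normalized counts in KO striatum 2 to 4, and 1296 in WT cortex 7 against 1851 to 2296 in the other WT cortex libraries. Pdgfra had 2164, 2105 and 2000 in KO striatum 2 to 4, and 1926 in WT cortex 7 against 1356 to 1526 in the other WT cortex libraries. Among striatum libraries Cacng4 was highest in WT striatum 5 and 7 (4141 and 3447) and lowest in KO striatum 4 (2229). The striatal neuron marker Drd1 was also highest in WT striatum 5 and 7 (7618 and 6458) and lowest in KO striatum 4 (1714). Whether the Cacng4 values came from neurons or from the oligodendrocyte lineage was not tested. Josd2, Bcas1, Pdgfra, Cspg4, Sox6, Drd1 and the 7 oligodendrocyte genes called with 3 libraries left out were picked for naming after their values were seen.

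Of 10 genes of sphingolipid and fatty acid enzymes, 5 rose in striatum in KO mice, and 7 rose and 1 fell in WT mice. The smallest p belonged to Scd2, a fatty acid desaturase (0.68 in KO and 0.72 in WT mice), Degs1, which makes ceramide (0.52 in KO and 0.72 in WT mice), and Cers2, the synthase of very long chain ceramides (0.73 in KO and 0.77 in WT mice). Of 19 cholesterol synthesis genes, 2 rose and 5 fell in striatum in KO mice, and 0 rose and 13 fell in WT mice, with medians of -0.14 in KO and -0.37 in WT mice. Of 11 axonal and nodal partners of myelin, 2 rose and 2 fell in striatum in KO mice, and 3 rose and 1 fell in WT mice. Cntnap2, of the zone next to the paranode, rose (0.53 in KO and 0.70 in WT mice), while Kcna2, a potassium channel of the same zone, fell (-0.55 in KO and -0.78 in WT mice).

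The 29 genes did not keep fixed ratios to each other from library to library. Each gene was centred on its mean in each group, and the average of the 29 centred values in a library was then removed. The residual SD over the 15 libraries was largest for Opalin (0.30 on the log2 scale), then Olig2 (0.22) and Nkx6-2 (0.22), and smallest for Cnp and Aspa (0.06 each). Before that average was removed Olig2 had the smallest SD of the 29 genes (0.18), so its place here does not mark it as a variable gene. Opalin stood at 0.71, 1.18 and 1.09 counts per 100 Mbp counts in KO striatum 2, 3 and 4, and at 1.02, 1.03, 1.13 and 0.59 in WT striatum 5 to 8. In cortex the ratio was 1.22, 0.78, 1.31 and 1.34 in KO 1 to 4, and 1.05, 1.20, 1.51 and 0.69 in WT 5 to 8. The libraries numbered 2 and 8 were the lowest of their group in each tissue. The sources used here do not say whether a number stands for the same mouse in both tissues. Olig2 per 100 Mbp counts ran from 1.80 to 2.08 in KO striatum and 1.25 to 2.06 in WT striatum, and from 2.48 to 2.77 in KO cortex and 1.78 to 3.76 in WT cortex. The highest value was in WT cortex 7, where Mbp had its lowest count of all libraries (17111) and Olig2 had 644.

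**Figure D5:**
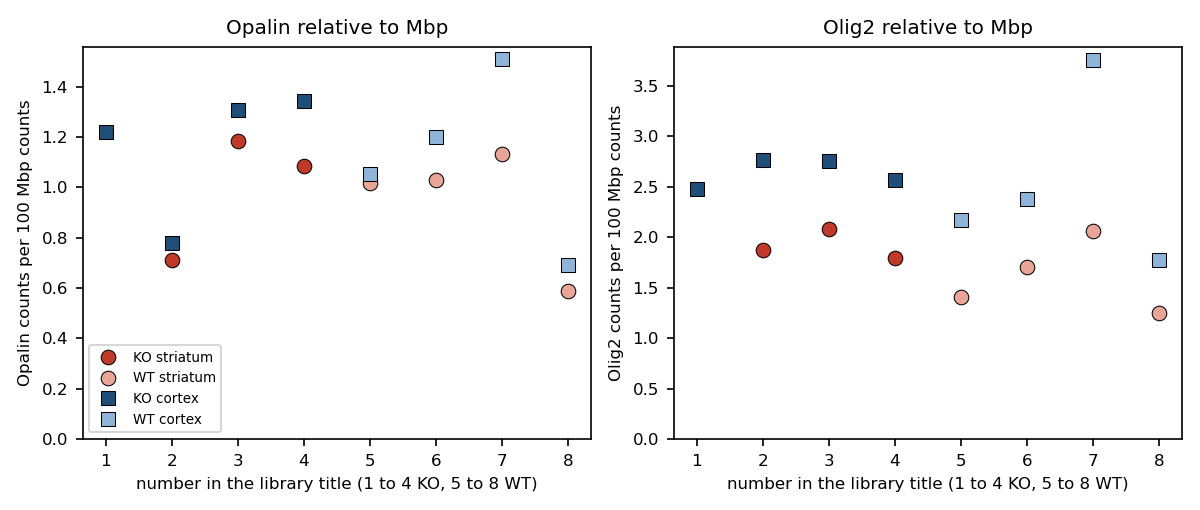
Normalized counts of Opalin (left) and Olig2 (right) per 100 normalized counts of Mbp are plotted against the number in the library title, for KO (1 to 4) and WT (5 to 8) in striatum (circles) and cortex (squares). For Opalin, numbers 2 and 8 lie lowest in both tissues, at 0.59 to 0.78, and the other libraries at 1.02 to 1.51.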

How the data were processed

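Libraries were made from total RNA with the NEBNext Ultra RNA kit, per the labels' protocols. The submitters' processing notes list the build GRCm38 and, with no role or order, HTSeq 0.6.0, TopHat2 2.1.1, DESeq2 1.12.4, cutadapt 1.1 and FastQC 0.11.5. The strand setting and annotation release are not given in the sources used here. The deposited signal values, called normalized counts here, are read counts scaled by the authors with a single factor for each library. Division by the smallest step gave whole reads within 0.001 for 100% of values (largest deviation 5.2e-05). These recovered reads were used for edgeR 4.0.16 and DESeq2 1.42.0 as alternatives. The test was that of limma 3.58.1 in R 4.3.3, run on log2(normalized count + 1) with a variance trend, 1 mean per group and all 15 libraries (11 residual degrees of freedom), so fold changes of low genes are understated. Benjamini-Hochberg adjustment covered all 17030 genes with a value of at least 10 in at least 3 libraries, and a gene was called below 0.05. The script was tested on simulated data. Positions and exon lengths came from GENCODE M21 (GRCm38). All 29 genes are named, and from each other list at most the 3 with the smallest p in WT striatum against cortex, besides those said to be picked later. Some genes that this rule takes in are left out of the text. The genes and lists were chosen with earlier results of these data known, so counts and medians over them are descriptions. Depth was similar within a tissue, and intervals cover the spread between libraries, as a single spread shared by all groups. Plots used matplotlib 3.10.9 under Python 3.11.15.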

Additional observations from a re-analysis of the deposited data

Results flagged for a closer look

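In groups of 4 libraries, a library was noted when its gap to the nearest other exceeded Dixon's 95% critical value as a share of the group's range. Of 87 gene and group combinations examined, 9 met it. Chance flags about 1 in 20 groups, and the genes share libraries, so these are not independent. KO striatum, with 3 libraries, was not examined. WT cortex 7 was low for Ugt8a at 973 normalized counts, Fa2h at 367, Qdpr at 2856, Sox10 at 590 and Cryab at 1529. WT striatum 8 was high for Ermn at 6162 and Myrf at 3828. WT striatum 7 was high for Olig2 at 1232. KO cortex 3 was low for Ninj2 at 22.4.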

How the results depend on the processing

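Settings tried were pseudocounts of 0.5 and 10, no filter on low values, TMM scaling, edgeR and DESeq2 on recovered reads, fits of only the groups compared, a replicate block, each library left out in turn, and exclusions chosen after the data were seen. Over all of them 28 to 29 of the 29 genes rose in striatum in WT mice and 25 to 29 in KO mice, and no call changed direction. For KO against WT in striatum, the count of called genes ranged from 0 to 1 with each library left out in turn, the 1 without KO striatum 4. It was 1 with KO striatum 4 and WT striatum 8 left out, and 8 with WT cortex 7 left out as well, which enters a striatum comparison only through the shared spread. Without KO striatum 3 the median of the difference between tissues was 0.04, without WT cortex 7 -0.02 and without KO striatum 4 -0.48, against -0.21 with all libraries; the cause was not tested. The 0 in cortex and the 0 for the difference between tissues kept that value in every setting. All genes called for KO against WT in striatum numbered 13 in the fit reported, 0 in the fit of only the groups compared, 17 by edgeR and 333 by DESeq2, and 4 to 516 with each library left out in turn (516 without KO striatum 4, 187 without WT striatum 8 and 4 without WT striatum 6). Among 7 same-numbered pairs of cortex and striatum libraries, 6 deviated together with correlations of 0.12 to 0.20, and WT 7 did not (-0.02). Since not every pair passed 0.1 and no label states a pairing, the numbers were not used to pair libraries; that 6 of 7 correlated best with their own number is a hint from the data, not from the design. The replicate block gave 28 called genes in WT and 28 in KO mice for striatum against cortex, adding Ppp1r14a (0.67, limma adjusted p = 0.043) and Cryab (0.54, limma adjusted p = 0.046) in KO mice, which edgeR and DESeq2 also called, and 0 for KO against WT in each tissue and for the difference between tissues. Ninj2, with the fewest counts of the 29, had the widest intervals.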
